A study of Arabidopsis thaliana with 36 samples.

Results

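The comparison described here is the change in root transcripts between 1 h and 2 h of PEG+SHAM, polyethylene glycol with salicylhydroxamic acid, in wild-type Arabidopsis thaliana seedlings. It used 6 of the 36 libraries of the series, picked by their labels as the 3 root libraries of 2 h and the 3 root libraries of 1 h, and no water library entered the contrast. The seedlings of every group were Col-0 plants, 7 d old, grown at 21 °C with 16 h of light and 8 h of dark. PEG draws water out of plant tissue and SHAM inhibits the alternative oxidase and lipoxygenases. The labels give 30% PEG with 1 mM SHAM for both times, at -2.0 MPa, while the treatment protocol also names 0.1 mM SHAM. Both agents were present in all 6 libraries, so their effects cannot be told apart. Nor can the second hour of treatment be told apart from the passing of the hour itself, since water roots of 2 h were not analysed here. The 9 water root libraries quoted for their level are 3 sets labelled as 1 h in water, while the treatment protocol names a start at 0 h, so the time to which their level belongs is not settled. Each biological replicate pooled 30 to 50 seedlings, so a value is a mean over plants and over all cell types of the root, and fewer cells of a type cannot be told apart from less RNA per cell.

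Transcripts were counted by MARS-seq, which reads the 3′ ends of messenger RNAs. The values are the deposited normalized signal, a gene's read count divided by a size factor of its library. Whole reads recovered from that signal came to 1820752, 1589685 and 2348155 in the 2 h libraries, against 1775567, 429814 and 7181461 in the 1 h libraries. Depth was therefore more uneven at 1 h, where replicate 2 was the shallowest and replicate 3 the deepest. Replicate 2 of 1 h also stood apart in 26 photosynthesis genes that served as markers of shoot tissue. Their summed signal was 1466.3, 2084.9 and 1069.6 in the 2 h libraries, against 2052.8, 8312.7 and 1058.1 in the 1 h libraries, while shoot libraries held 171587.4 to 459204.5. No root library exceeded the 8312.7 of that replicate. Root identity showed in 5 root markers, whose sum was 1362.5, 1259.7 and 1233.6 at 2 h, against 1486.4, 1258.2 and 2095.9 at 1 h, with 34.2 to 259.7 in shoot libraries. Where leaving out this replicate ends or makes a limma call of a named gene in roots, the value without it is given. Where it moves a gene's printed log2 change by over 1.5 times, that value or a range that holds it is given. For edgeR and DESeq2, calls without it are given for only some genes.

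Abscisic acid is the hormone through which plant cells answer water loss. Its receptors, the PYR/PYL proteins, bind and block the clade A protein phosphatases 2C, which otherwise hold SnRK2 kinases inactive. Freed SnRK2 kinases switch on ABF transcription factors, and these act on promoter elements with an ACGTG core. Among the genes induced in this way are several of the phosphatases themselves, which are known as a negative feedback on the hormone's signal.

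Between 1 h and 2 h, 6 genes rose in roots and none fell, of 11950 tested with limma at a Benjamini-Hochberg adjusted p under 0.05, here termed called (0.0502% higher and 0% lower). HAI2, MAPKKK18 and AFP1 belong to abscisic acid signalling, BAM1 encodes a beta-amylase, and AT4G36010 and AT4G33930 are known by their protein families alone. At an unadjusted p under 0.05 there were 377 genes higher (3.15%) and 186 lower (1.56%). edgeR on the recovered reads called 11 genes higher (0.0921%) and 0 lower, and DESeq2 called 33 higher (0.276%) and 4 lower (0.0335%). The 4 lower were AT1G06120 and the photosynthesis genes CAB3, LHB1B1 and RBCS3B. None of them was called by DESeq2 without replicate 2 of 1 h, the library high in shoot markers. The fit held all 18 root libraries. Those outside the comparison did not enter the contrast, but they helped to estimate the spread and counted in the filter on low values, a signal of 5 or more in at least 3 root libraries. With the filter on the 6 compared libraries alone 8898 genes could be tested, so some list members below were tested only through other root libraries. With the 9 PEG+SHAM root libraries alone, or with the 6 compared libraries alone, limma called 0 genes, at 204 and 101 genes with an unadjusted p under 0.05, and edgeR on the 6 called 0 as well. With the replicate number as a block over all root libraries 4 genes were called, HAI2, MAPKKK18, AFP1 and AT4G36010. With that block over the 2 h and 1 h libraries alone 19 were called higher and 1 lower. The latter block was added after the data were seen, because libraries of like number deviated together, so its calls below are no separate support. In a fit of the 6 compared libraries it called 0 genes.

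HAI2 (AT1G07430), a clade A phosphatase named for its strong induction by abscisic acid, had the largest change of the called genes. Its signal was 26.9, 40.5 and 24.8 in the 2 h libraries, against 1.3, 0 and 2.9 in the 1 h libraries. Near absence at 1 h thus gave way to a clear signal in every 2 h library, and the groups did not overlap. The log2 change was 3.90 ± 0.54 (SE, limma adjusted p = 0.0127, higher in 3 of 3 libraries), on a scale of log2(signal + 1) that understates low genes. Behind these values were 41, 42 and 60 reads at 2 h, against 2, 0 and 20 reads at 1 h. At 3 h the signal was 104.0, 105.7 and 38.3, and the 9 water root libraries held 0 to 1.0 with a median of 0. HAI2 thus passed the filter on low values only through libraries of 2 h and 3 h.

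MAPKKK18 (AT1G05100), a kinase at the head of an abscisic acid-activated MAP kinase cascade, had 103.7, 175.4 and 128.2 at 2 h, against 15.5, 46.9 and 23.1 at 1 h. All 2 h libraries lay above the highest of 1 h, which was replicate 2. The log2 change was 2.32 ± 0.39 (limma adjusted p = 0.0412). Its signal was 431.0, 430.5 and 402.6 at 3 h, and water roots ranged from 3.1 to 9.5 with a median of 5.3.

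AFP1 (AT1G69260), whose protein binds the transcription factor ABI5 and promotes its breakdown, had 44.0, 63.6 and 46.3 at 2 h, against 12.1, 12.8 and 10.4 at 1 h. The 1 h libraries differed little among themselves and lay within the range of water roots, which was 2.8 to 16.7 with a median of 11.1. The log2 change was 2.02 ± 0.34 (limma adjusted p = 0.0412), and the 3 h libraries held 204.3, 177.7 and 121.8. AFP1 overlaps AT1G69270 on the other strand in the RefSeq annotation, and the sources used here do not say whether counting used strand, so reads of the pair could be mixed.

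AT4G36010, annotated as a protein of the thaumatin superfamily of pathogenesis-related proteins, had 199.5, 308.4 and 199.7 at 2 h, against 45.8, 68.2 and 69.9 at 1 h. Its lowest 2 h library was well above its highest 1 h library, and the log2 change was 1.92 ± 0.28 (limma adjusted p = 0.0127). At 3 h it reached 485.6, 668.5 and 418.0, and water roots held 21.3 to 55.4 with a median of 47.5.

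BAM1 (AT3G23920), a plastid beta-amylase that releases maltose from starch, had 303.2, 332.5 and 365.5 at 2 h, against 140.6, 132.2 and 165.3 at 1 h. Both groups were tight and far apart, with a log2 change of 1.19 ± 0.21 (limma adjusted p = 0.0481), the smallest of the called genes. The 3 h libraries held 647.9, 607.5 and 439.1, and water roots 52.8 to 94.2 with a median of 76.0.

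AT4G33930, annotated as a cupredoxin, a family of small copper proteins, was the weakest signal called. It had 4.6, 17.3 and 19.4 at 2 h, against 0.7, 0 and 1.2 at 1 h, and was at 0 in all 9 water root libraries. The log2 change was 3.04 ± 0.52 (limma adjusted p = 0.0412), and the 3 h values were 26.1, 51.2 and 20.1. With 2 of the 6 compared libraries at 5 or more, it passed the filter only through its 3 h libraries. It is named although its 2 h mean of 13.8 ± 8.01 (SD, n = 3) is below the level set for naming.

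**Figure D1:**
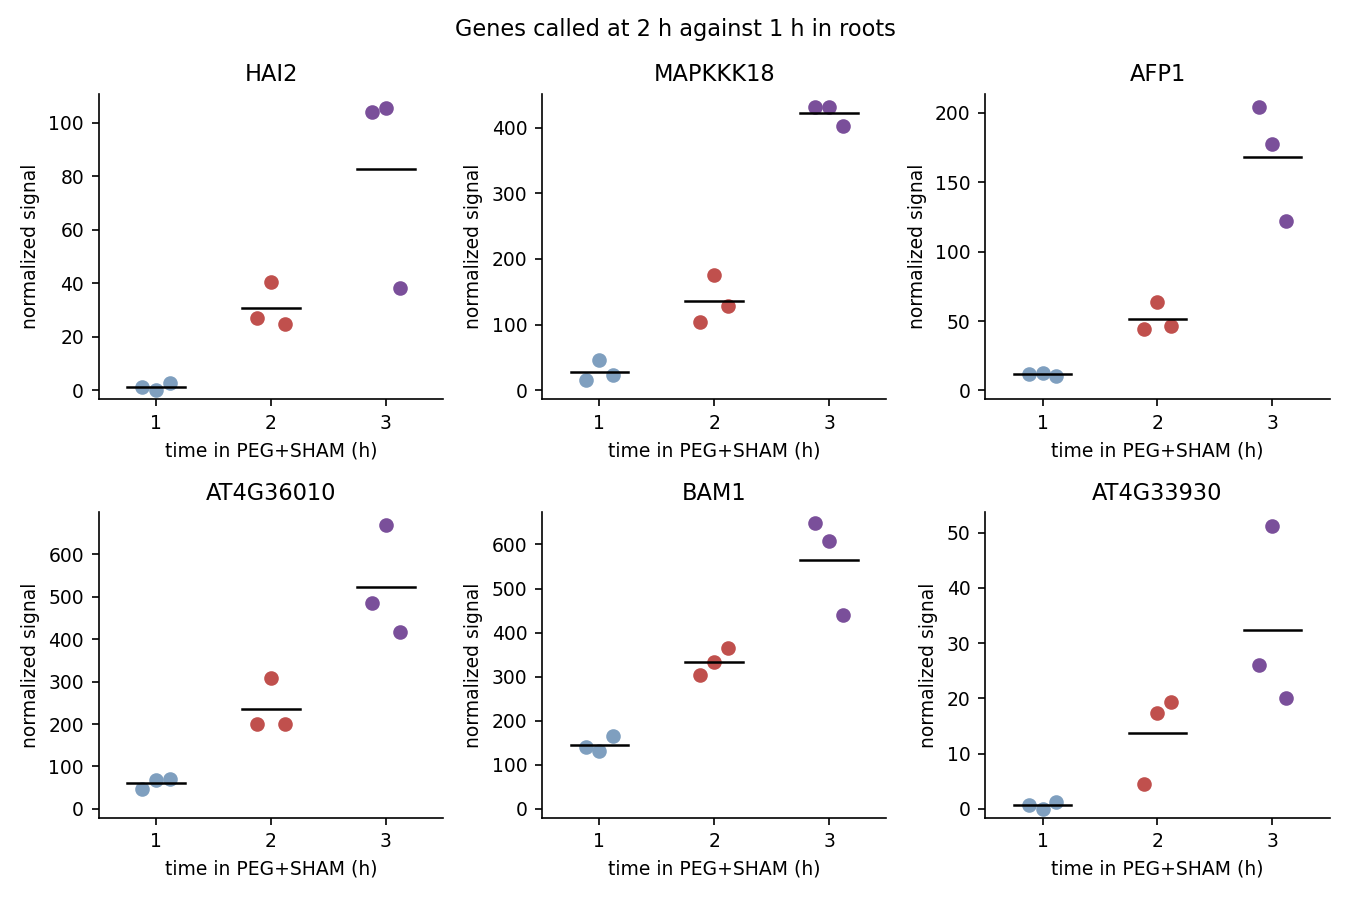
Normalized signal of the 6 genes called at 2 h against 1 h in roots, with time in PEG+SHAM on the horizontal axis, 1 point per library and a line at the mean of 3 libraries. In each gene every 2 h library lies above every 1 h library, and the 3 h mean lies above the 2 h mean.

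Between 2 h and 3 h, a comparison that shares the 2 h libraries, limma called 1 root gene higher (0.00837%), which was not one of these 6. Their log2 differences for that hour were 0.74 to 1.68, with adjusted p of 0.189 for AFP1 and above that for the others.

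The calls depended on single libraries. Leaving out replicate 2 of 2 h or replicate 1 of 1 h left 0 genes called by limma, with 460 and 1206 genes at an unadjusted p under 0.05. Without replicate 3 of 2 h only HAI2 and AT4G36010 passed, with adjusted p = 0.0386 for both. MAPKKK18 and AFP1 also missed the threshold without replicate 1 of 2 h (0.0587 for both) and without replicate 3 of 1 h (0.0722 for both). BAM1 passed in 1 of the 6 fits that leave out a library, the one without replicate 3 of 1 h (0.0458). Without the shallow replicate 2 of 1 h, limma called 13 genes higher and 1 lower, AT1G30870, among them HAI2 (log2 change 3.37, adjusted p = 0.0124), MAPKKK18 (2.74, 0.0108), AFP1 (2.08, 0.029) and AT4G36010 (2.01, 0.0108). BAM1 (1.12, 0.0678) and AT4G33930 (2.73, 0.0918) did not pass in that fit. The fold changes moved less than the calls: over the 6 fits that leave out 1 library, HAI2 ranged from 3.37 to 4.35, MAPKKK18 from 1.98 to 2.74, AFP1 from 1.86 to 2.12 and AT4G36010 from 1.71 to 2.03.

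**Figure D2:**
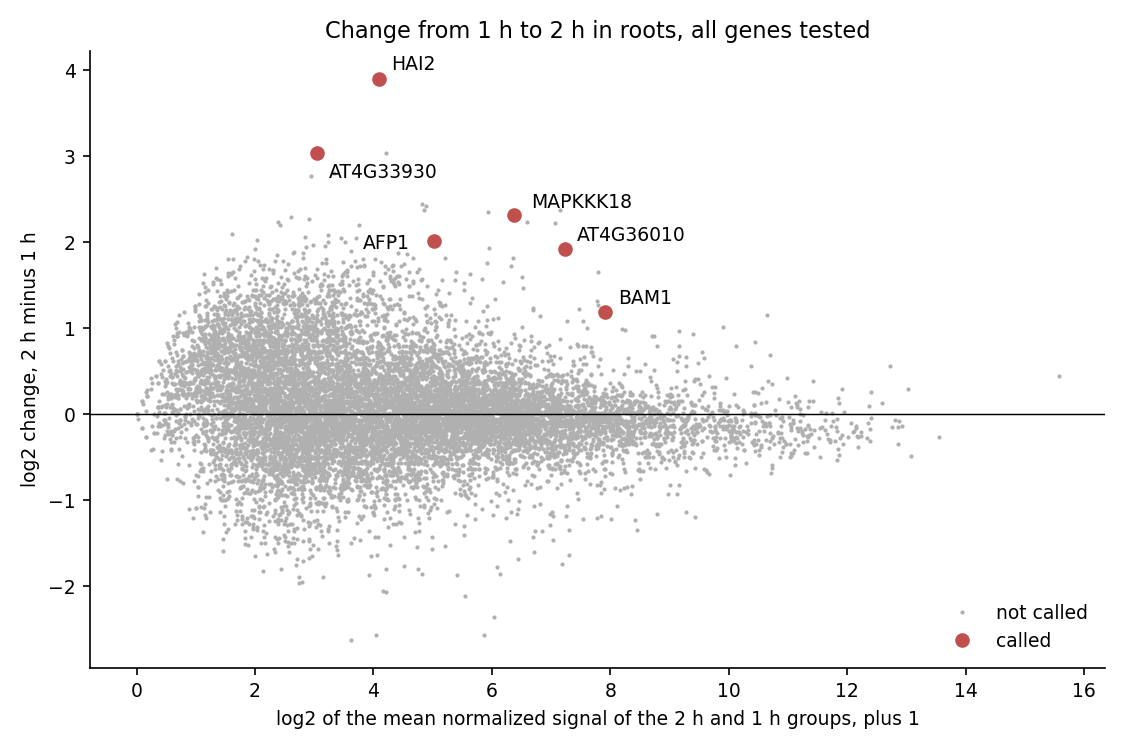
Log2 change from 1 h to 2 h in roots (vertical axis) against the log2 mean signal of both groups plus 1 (horizontal axis) for the 11950 genes tested. The 6 called genes are in red and named, and no gene below 0 is called. Some genes that were not called had larger changes at a like signal, as AT5G17760 (1.66) beside BAM1 (1.19).

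The promoters of all 6 called genes were searched on both strands for ACGTG, the core of the element bound by ABF factors. The window was the 250 bases before the annotated gene start, read by locus tag from the RefSeq assembly TAIR10.1, which may differ from the build the authors counted on. The 3 promoters that held the core are shown, picked after the matches were seen, 5′ to 3′ on the gene's strand, with ACGTG and its reverse complement CACGT in capitals. A CACGTG holds both words and counts as 2 matches. HAI2 held 4 matches, MAPKKK18 held 3 and AFP1 held 2:
HAI2 (chr1:2282829-2283078, minus strand): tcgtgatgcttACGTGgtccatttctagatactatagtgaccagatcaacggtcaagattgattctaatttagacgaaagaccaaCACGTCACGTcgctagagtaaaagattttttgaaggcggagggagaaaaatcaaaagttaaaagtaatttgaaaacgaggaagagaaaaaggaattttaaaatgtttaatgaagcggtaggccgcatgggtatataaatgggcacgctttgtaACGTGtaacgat
MAPKKK18 (chr1:1469291-1469540, plus strand): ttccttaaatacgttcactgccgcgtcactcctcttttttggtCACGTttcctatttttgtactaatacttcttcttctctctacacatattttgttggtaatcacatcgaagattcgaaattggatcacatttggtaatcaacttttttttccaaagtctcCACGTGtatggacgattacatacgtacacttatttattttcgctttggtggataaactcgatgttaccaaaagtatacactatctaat
AFP1 (chr1:26038655-26038904, plus strand): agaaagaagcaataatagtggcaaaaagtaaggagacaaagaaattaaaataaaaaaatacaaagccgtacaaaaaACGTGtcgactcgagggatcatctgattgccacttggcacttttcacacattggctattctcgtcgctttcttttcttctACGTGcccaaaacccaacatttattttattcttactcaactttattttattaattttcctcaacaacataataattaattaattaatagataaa

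The other called genes, AT4G36010, BAM1 and AT4G33930, had 0 matches in this window. Thus 3 of 6 called genes held at least 1 match, all of them at least 2, beside 2874 (24.5%) and 1200 (10.2%) of the 11748 promoters of tested protein-coding genes. The 3 genes with a match are those that belong to abscisic acid signalling. A match describes letters in a window and is not a measured binding site. Whether ABF factors act on these genes was not tested.

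HAI2 was 1 of 8 clade A phosphatases that could be tested, and all 8 had a log2 change above 0, with a median of 1.12 beside 0.04 over all genes tested. With the filter on the 6 compared libraries alone 6 could be tested, and these 6 were above 0 with a median of 1.12. HAI2 passed that filter only through its 2 h libraries, so its sign there was fixed by the filter. Without replicate 3 of 2 h, or without replicate 2 of 1 h, 7 of the 8 were above 0. Of the 8 genes, 6 had no overlap between the times, beside 3.38% of all genes for higher values at 2 h. HAI1, a close relative of HAI2, had 59.7, 118.5 and 121.1 at 2 h, against 11.4, 34.1 and 14.2 at 1 h. Its log2 change of 2.35 ± 0.50 did not pass (limma adjusted p = 0.144), but it did in edgeR (adjusted p = 0.00671) and DESeq2 (6.09e-08) on the recovered reads and in limma without replicate 2 of 1 h (0.029) or with the replicate block over the 2 h and 1 h libraries (0.0329). HAI3, the third of that subgroup, was near 0 at 1 h and had 1.3, 5.8 and 3.7 at 2 h, against 0.7, 0 and 0 at 1 h. It counts among the genes with no overlap, but it passed the filter only with libraries outside the comparison.

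ABI1, known from abscisic acid-insensitive mutants, had 690.4, 713.2 and 820.2 at 2 h, against 284.6, 563.0 and 330.5 at 1 h. Replicate 2 of 1 h was again the highest of its group. The log2 change of 0.97 ± 0.23 did not pass in limma (adjusted p = 0.252) or edgeR (0.155) but did in DESeq2 (0.00111), and without that replicate it was 1.27 with a limma adjusted p of 0.0108. ABI2 had 23.0, 34.7 and 25.6 at 2 h, against 11.4, 8.5 and 12.8 at 1 h, a log2 change of 1.27 ± 0.34 (limma adjusted p = 0.478). PP2CA and HAB2 had overlapping libraries, with log2 changes of 0.50 ± 0.27 and 0.81 ± 0.96. Leaving out 1 library gave 0.30 to 0.90 for PP2CA and -0.29 to 1.85 for HAB2. In 5 of the 8 tested phosphatase genes, HAI2 again among them, the promoter window held an ACGTG match. The share over tested protein-coding genes was 24.5%.

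**Figure D3:**
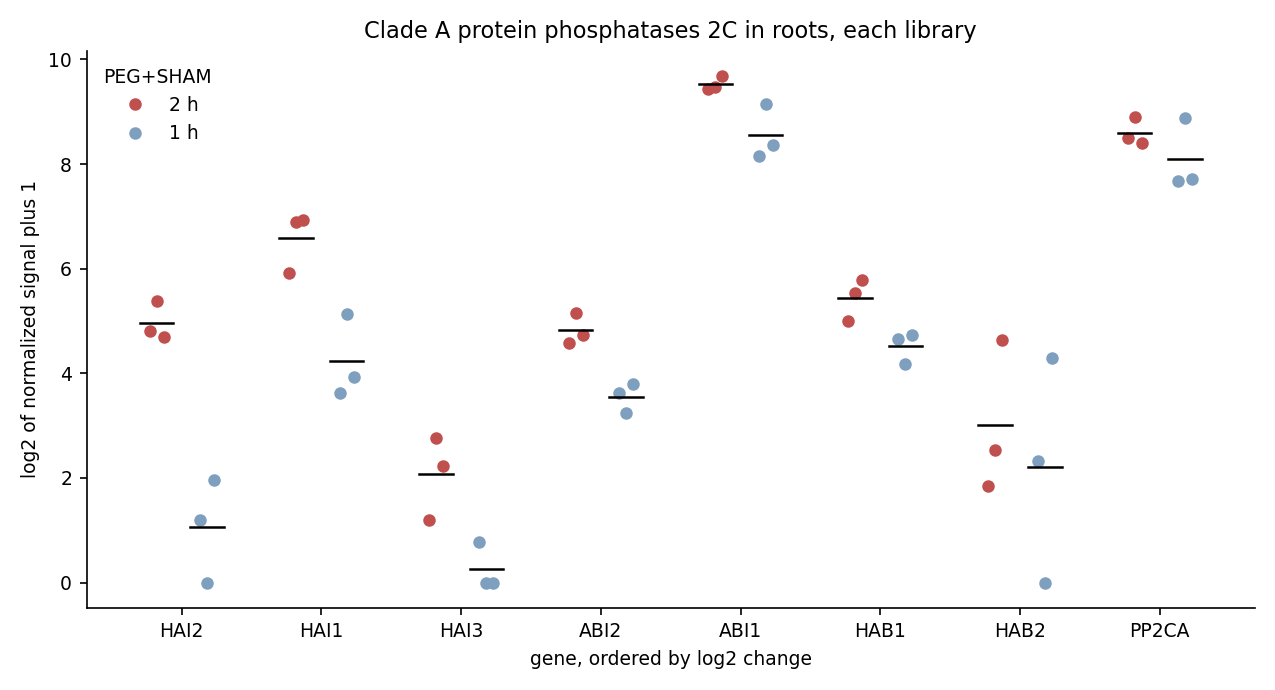
Signal of the 8 tested clade A phosphatases in each root library, as log2 of normalized signal plus 1, with 2 h libraries in red left of 1 h libraries in blue and a line at the mean of 3. HAI2 and HAI1 show the widest gaps, ABI1 has 1 raised 1 h library, and PP2CA and HAB2 overlap.

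Among the receptors of the hormone 0 were called by limma, 0 by edgeR and 0 by DESeq2, and 0 had an unadjusted p under 0.05. Of 8 tested PYR/PYL genes, 6 had a log2 change below 0 and 2 above, with a median of -0.23. PYL1 had 26.3, 34.7 and 34.3 at 2 h, against 49.8, 55.4 and 58.0 at 1 h, and PYR1 had 113.5, 157.1 and 116.6 at 2 h, against 158.1, 174.9 and 175.6 at 1 h. In both the libraries of the times did not overlap, beside 1.73% of all genes for lower values at 2 h, and neither passed (limma adjusted p = 0.994 for both). The list's median ranged from -0.58 without replicate 2 of 2 h to 0.04 without replicate 3 of 2 h, so its sign rested on single libraries.

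Downstream of the phosphatases, 10 genes of SnRK2 kinases, ABF factors and the AFP proteins could be tested, and 9 had a log2 change above 0, with a median of 0.48 that was 0.29 without replicate 2 of 2 h. Of these 10 only AFP1 was called by limma, edgeR or DESeq2. ABF1 had 68.9, 73.2 and 63.7 at 2 h, against 59.2, 17.1 and 51.4 at 1 h, and ABF2 had 14.4, 15.4 and 19.0 at 2 h, against 12.8, 4.3 and 9.6 at 1 h. Their groups did not overlap, as in 4 of the 10 genes for higher values at 2 h, beside 3.38% of all genes. Replicate 2, with 4 reads of ABF1, was the lowest of the 1 h libraries in both ABF1 and ABF2. The log2 changes of ABF1 and ABF2, 0.85 and 0.90, were 0.31 and 0.50 without that replicate, and neither passed (limma adjusted p = 0.994 for both). ABF3 and ABF4 overlapped, with log2 changes of 0.14 ± 0.28 and 0.01 ± 0.27, which were 0.53 and -0.19 without replicate 2 of 1 h. Of the MAP kinase list, 4 genes could be tested and MAPKKK18 was called. MAPKKK17, its closest relative, had 64.3, 84.8 and 66.6 at 2 h, against 27.6, 25.6 and 28.9 at 1 h, with a log2 change of 1.35 ± 0.35 that did not pass (limma adjusted p = 0.433). MAPKKK15 averaged 21.6 ± 5.62 at 2 h and 22.9 ± 6.07 at 1 h (SD, n = 3 each).

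Genes that make or break down abscisic acid were low, and 0 of 5 tested were called by limma, 0 by edgeR and 0 by DESeq2, and 0 had an unadjusted p under 0.05. NCED3, which encodes the enzyme of the regulated step of synthesis, had 30.2, 35.7 and 31.8 at 2 h, against 12.1, 12.8 and 43.2 at 1 h. CYP707A1, an abscisic acid hydroxylase, had 9.2, 11.6 and 5.0 at 2 h, against 3.4, 4.3 and 5.0 at 1 h. In both genes the libraries overlapped. The list's median was 0.79, and 0.48 without replicate 2 of 1 h.

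Stress transcription factors had 15 of 17 tested genes above 0, with a median log2 change of 0.79, and 9 were higher at an unadjusted p under 0.05, beside 3.15% of all genes. None was called by limma, and edgeR called 1, RAS1 (adjusted p = 0.0082). DESeq2 called 3, which were RAS1 (adjusted p = 5.68e-05), HB-7 (0.0152) and ATAF1 (0.0121). RAS1, known as a regulator of salt and abscisic acid responses, had 105.0, 190.8 and 166.6 at 2 h, against 20.2, 68.2 and 21.5 at 1 h, with a log2 change of 2.23 ± 0.46 (limma adjusted p = 0.144, and 0.0188 with the replicate block over the 2 h and 1 h libraries). Without replicate 2 of 1 h, its highest library of that time, the change was 2.78 and passed (0.0108). HB-7, a homeodomain-leucine zipper factor induced by water deficit, had 70.2, 196.6 and 100.9 at 2 h, against 40.4, 51.2 and 17.1 at 1 h (1.73 ± 0.44, adjusted p = 0.405). ATAF1, a NAC factor, had 1538.3, 3442.5 and 1680.1 at 2 h, against 740.8, 1463.0 and 733.2 at 1 h (1.16 ± 0.31, adjusted p = 0.478, and 0.0141 with that block). In these 3 genes the libraries of the 2 times did not overlap, although the lowest 2 h and the highest 1 h library of ATAF1 were close. Of the 17 tested, 4 had no overlap for higher values at 2 h, beside 3.38% of all genes. For lower values it was 1, beside 1.73%.

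DREB2A, which activates heat and dehydration genes, had 26.9, 93.5 and 158.8 at 2 h, against 14.1, 51.2 and 12.7 at 1 h, and its groups overlapped. The zinc finger factor STZ had overlapping groups too, with 612.3, 747.9 and 673.9 at 2 h, against 708.5, 917.0 and 442.6 at 1 h. ZF1 had the lowest change of the list, with 7.9, 20.2 and 9.9 at 2 h, against 21.5, 42.7 and 20.7 at 1 h (-1.12 ± 0.39, adjusted p = 0.912).

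The protective proteins and osmolyte enzymes that such factors drive were more mixed, with 14 of 21 above 0 and a median of 0.36. That median was 0.12 without replicate 2 of 2 h and 0.66 without replicate 2 of 1 h. Of these genes 6 were higher at an unadjusted p under 0.05 in limma, beside 3.15% of all genes. Calls numbered 0 by limma, 0 by edgeR and 1 by DESeq2. GolS2, a galactinol synthase of raffinose synthesis, had 17.1, 83.8 and 40.5 at 2 h, against 4.7, 12.8 and 4.1 at 1 h, with a log2 change of 2.44 ± 0.80 (limma adjusted p = 0.813). It was the gene of this list called by DESeq2 (3.07, adjusted p = 0.0118). LTI78, the dehydration marker also known as RD29A, had 1061.8, 1501.5 and 1237.4 at 2 h, against 503.3, 836.0 and 560.2 at 1 h (1.02 ± 0.30, limma adjusted p = 0.644). Without replicate 2 of 1 h DESeq2 called both GolS2 (adjusted p = 0.00188) and LTI78 (0.0245). In neither gene did the libraries of the times overlap. Of the 21 tested, 4 had no overlap for higher values at 2 h, beside 3.38% of all genes.

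Among the abundant dehydrins and cold-induced genes some overlapped between the times and some did not. ERD10 had 1722.7, 2805.4 and 1688.0 at 2 h, against 1302.7, 1420.3 and 1052.6 at 1 h, with no overlap and a log2 change of 0.69 ± 0.33 that did not pass (limma adjusted p = 0.994). KIN2 had 2720.2, 7466.1 and 1575.5 at 2 h, against 3215.0, 11029.7 and 1249.7 at 1 h, and COR47 had 8767.7, 12072.7 and 6248.4 at 2 h, against 7121.7, 11545.8 and 4365.6 at 1 h. KIN2 and COR47 overlapped, and in both replicate 2 was the highest and replicate 3 the lowest library of each time. RAB18, a dehydrin of the abscisic acid response, had 7.2, 7.7 and 7.4 at 2 h, against 4.7, 12.8 and 18.5 at 1 h. Of 6 tested proline genes 5 had a log2 change above 0, with a median of 0.27 that was -0.09 without replicate 2 of 1 h, and 0 were called by limma, edgeR or DESeq2 or had an unadjusted p under 0.05. P5CS1, the stress-induced enzyme of proline synthesis, had 78.8, 72.3 and 104.2 at 2 h, against 31.0, 76.8 and 58.1 at 1 h.

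Heat shock factors and chaperones had 9 of 10 tested genes above 0, with a median of 0.86. Of them 4 were higher at an unadjusted p under 0.05 in limma, beside 3.15% of all genes. Calls numbered 0 by limma, 0 by edgeR and 1 by DESeq2. HSF4, a class B heat shock factor, had 471.9, 617.8 and 578.0 at 2 h, against 264.4, 319.9 and 299.9 at 1 h. The groups were well separated, and the log2 change of 0.91 ± 0.21 did not pass in limma (adjusted p = 0.252) but did in DESeq2 (0.00746). HSP101, a chaperone that dissolves protein aggregates, had 7.9, 7.7 and 11.2 at 2 h, against 1.3, 0 and 2.5 at 1 h (2.29 ± 0.69, adjusted p = 0.70). HSP70 had 42.7, 82.9 and 73.2 at 2 h, against 13.5, 29.9 and 28.9 at 1 h, and averaged 338.5 ± 70.6 at 3 h (SD, n = 3). The list's median was 0.43 without replicate 2 of 2 h and 1.21 without replicate 1 of 2 h.

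Outside the lists, 5 more genes came closest to a call among those with no overlap and a mean of 20 or more. AT5G17760, an ATPase-family protein, had 240.8, 391.3 and 383.2 at 2 h, against 88.8, 110.9 and 113.1 at 1 h (1.66 ± 0.30, limma adjusted p = 0.0532). APR3, an APS reductase of sulfate assimilation, had 225.8, 312.3 and 406.8 at 2 h, against 123.8, 119.4 and 136.8 at 1 h (1.27 ± 0.24, adjusted p = 0.0723). Both lay just outside the threshold, while BAM1 at 0.0481 lay just inside it. NFXL1, a zinc finger transcription factor, had 70.2, 59.8 and 163.7 at 2 h, against 17.5, 17.1 and 37.5 at 1 h (1.93 ± 0.38, adjusted p = 0.112). AT2G44130, a kelch repeat protein, and AT3G12510, annotated as a MADS-box protein, had adjusted p = 0.144 each, with log2 changes of 1.23 ± 0.25 and 2.22 ± 0.46. DESeq2 called all 5, edgeR called AT5G17760, AT2G44130 and AT3G12510, and limma with the replicate block over the 2 h and 1 h libraries called all 5, with adjusted p = 0.0141 for AT5G17760, 0.0143 for APR3, 0.00392 for NFXL1, 0.023 for AT2G44130 and 0.0036 for AT3G12510. With that block in a fit of the 6 compared libraries none of the 5 passed (limma adjusted p of 0.204 to 0.661). Without replicate 2 of 1 h, AT3G12510 passed in limma as well (2.76, adjusted p = 0.0114). In that case edgeR called AT3G12510 (adjusted p = 0.00799) but no longer AT5G17760 (0.119) or AT2G44130 (0.0992), and DESeq2 still called all 5. APR3, NFXL1, AT2G44130 and AT3G12510 overlap other annotated genes.

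Of the genes with lower values at 2 h, the one with the smallest p among those named was AT4G12520, of the lipid transfer protein superfamily, with 204.8, 135.9 and 91.4 at 2 h, against 265.1, 379.6 and 297.8 at 1 h (-1.18 ± 0.27, adjusted p = 0.252). Water roots held 401.8 to 998.4 of it, with a median of 895.5, and the 3 h libraries 113.3, 83.0 and 86.3. A neighbouring gene of the same family, AT4G12510, shares a long identical stretch with it in TAIR10.1, so counting may have split reads between them. AT1G06120, a fatty acid desaturase family gene, had 13.8, 22.2 and 13.6 at 2 h, against 49.8, 89.6 and 25.5 at 1 h (-1.53 ± 0.37, adjusted p = 0.325), and fell in DESeq2 (adjusted p = 0.0435) and with the replicate block over the 2 h and 1 h libraries (limma adjusted p = 0.0341). Its highest 1 h library is replicate 2, without which it did not pass in limma (-1.10, 0.765) or in DESeq2 (-1.19, 0.17).

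CWLP, a cell wall-plasma membrane linker protein, had 5.9, 1.9 and 12 at 2 h, against 19.5, 46.9 and 18.8 at 1 h (-2.07 ± 0.51, adjusted p = 0.325). In shoots it averaged 2657.1 ± 1620.0 at 2 h and 3422.0 ± 1497.6 at 1 h (SD, n = 3 each), and without replicate 2 of 1 h, which was high in shoot markers, its root change was -1.66. RBCS1A, a small subunit of Rubisco and one of those markers, had 88.6, 64.6 and 108.3 at 2 h, against 133.2, 349.7 and 158.3 at 1 h, a change of -1.18 ± 0.32 that was -0.76 without that replicate. Over the whole marker list 24 of 25 tested genes were below 0, with a median of -0.76. Of them 6 were lower at an unadjusted p under 0.05 in limma, beside 1.56% of all genes. Calls numbered 0 by limma, 0 by edgeR and 2 by DESeq2, CAB3 and RBCS3B, both lower. Without replicate 2 of 1 h the limma median was -0.02, 10 of 25 were above 0, and DESeq2 called 0 of them. In the 6 compared libraries at most 1 of the 26 markers was at 0. The part of shoot tissue in the root changes was not tested beyond these values.

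Root hair genes leaned to lower values at 2 h, with 10 of 11 tested below 0, a median of -0.66 and 0 called by limma (3 at an unadjusted p under 0.05, beside 1.56% of all genes; 0 by edgeR and by DESeq2). With the filter on the 6 compared libraries alone only 5 could be tested, with 1 above 0 and a median of -0.68. The rest, XTH12 among them, passed the filter only with libraries outside the comparison. EXPA7, an expansin of the growing root hair, had 8.5, 15.4 and 11.2 at 2 h, against 17.5, 29.9 and 24.5 at 1 h (-0.98 ± 0.31, adjusted p = 0.788). EXPA18 had 21.0, 20.2 and 9.9 at 2 h, against 26.9, 42.7 and 31.1 at 1 h (-0.98 ± 0.29, adjusted p = 0.66), a change that was -0.65 without replicate 3 of 2 h. XTH12, a xyloglucan-modifying enzyme, had 3.9, 1.9 and 2.5 at 2 h, against 4.7, 17.1 and 6.6 at 1 h (-1.33 ± 0.42, adjusted p = 0.775), a change that was -0.84 without replicate 2 of 1 h. In none of the 3 did the libraries of the times overlap. Of the 11 tested genes, 4 had no overlap for lower values at 2 h, beside 1.73% of all genes. Water roots held more of both expansins, 49.1 to 90.0 of EXPA7 and 73.9 to 202.5 of EXPA18. The median of the list stayed between -0.80 and -0.53 over the 6 fits that leave out 1 library.

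Other lists lay closer to 0. Casparian strip and endodermis genes had a median of -0.31, with 6 of 8 below 0, which was -0.11 without replicate 3 of 2 h, and cell wall growth genes outside root hairs had -0.39, with 8 of 11 below 0, which was -0.10 without replicate 2 of 1 h. The 19 plasma membrane and tonoplast aquaporins, channels for water, had a median of 0.03 that took either sign when single libraries were left out. TIP4;1 had the lowest change among them, with 105.0, 126.2 and 63.3 at 2 h, against 170.9, 136.5 and 160.1 at 1 h (-0.71 ± 0.24, adjusted p = 0.853), a change that was -0.43 without replicate 3 of 2 h. The alternative oxidase AOX1A, a target of SHAM, had 115.5, 122.4 and 123.2 at 2 h, against 105.0, 55.4 and 129.2 at 1 h, and the groups overlapped. LOX1, a lipoxygenase, had 135.2, 114.7 and 166.6 at 2 h, against 101.6, 46.9 and 93.0 at 1 h (0.84 ± 0.31, adjusted p = 0.994), a change that was 0.49 without replicate 2 of 1 h. Rapid oxidative and touch responsive genes had a median of -0.09, with 11 of 16 below 0, which was 0.07 without replicate 2 of 1 h. The 11 reference genes had a median of 0.23, which was -0.07 without replicate 3 of 1 h and 0.61 without replicate 1 of 2 h. None of these lists held a gene called by limma, edgeR or DESeq2.

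**Figure D4:**
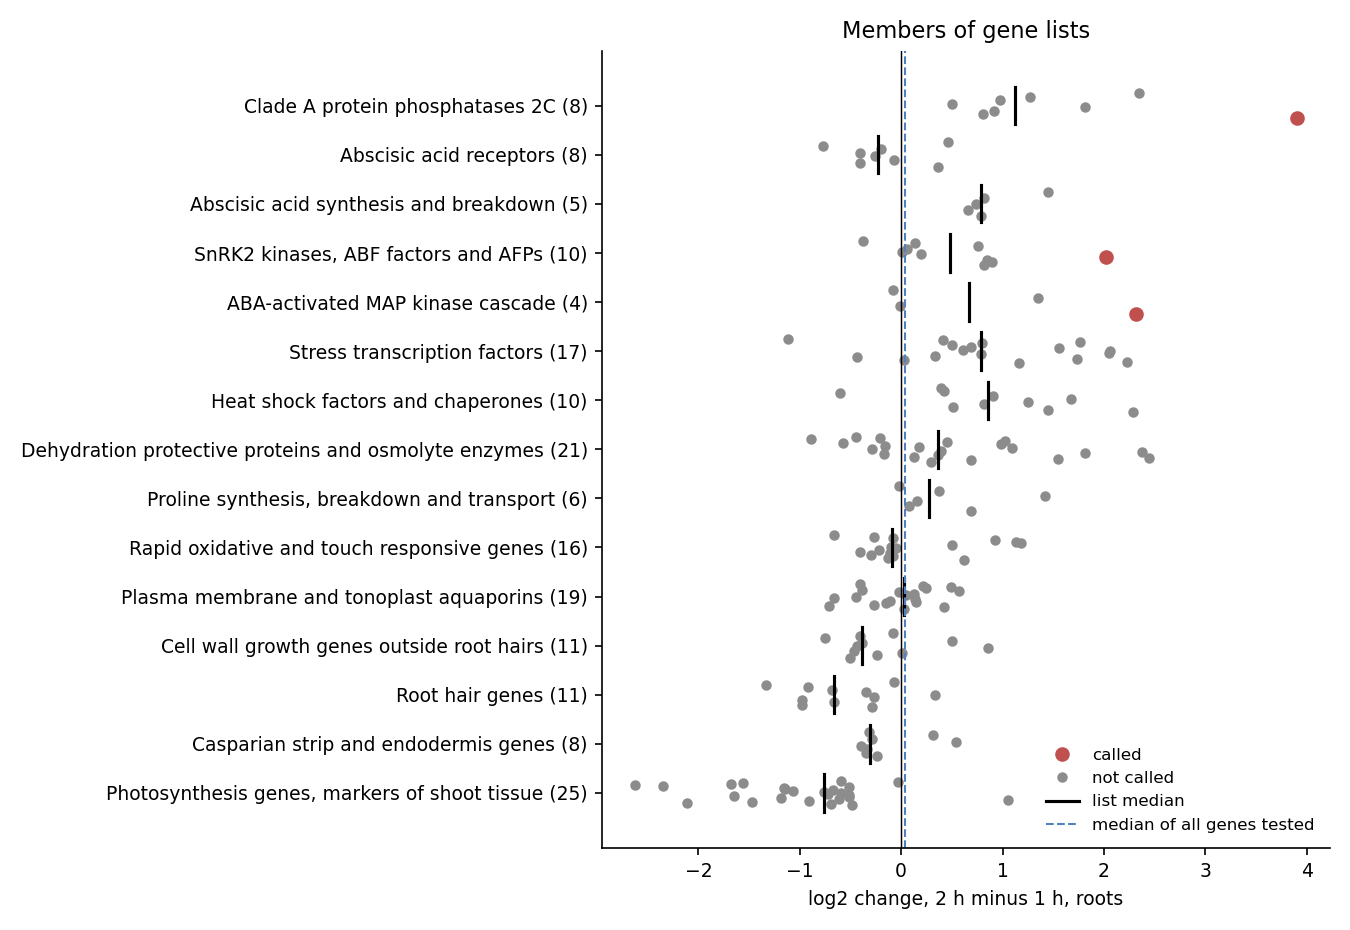
Log2 change from 1 h to 2 h in roots (horizontal axis) of the tested members of 15 gene lists, with the number tested in brackets, called genes in red, a black line at each list's median and a dashed line at the median of all genes tested, 0.04. The phosphatases are all above 0 and the photosynthesis markers nearly all below it.

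The same hour in shoots gave 120 genes called higher (1.15%) and 117 lower (1.12%) of 10459 tested. Replicate 2 of 2 h in shoots held 340153 reads, fewer than any of the 6 compared root libraries. Among the 6 genes called in roots, HAI2 (log2 change 2.56 ± 0.53, limma adjusted p = 0.0104), MAPKKK18 (3.61 ± 0.58, 0.00118), AFP1 (2.57 ± 0.48, 0.00437) and BAM1 (2.25 ± 0.19, 1.12e-06) rose in shoots as well. AT4G36010 (1.32 ± 0.67, 0.423) and AT4G33930 (0.63 ± 0.73, 0.796) did not pass there. The difference of the changes, root minus shoot, did not pass for any of the 6, with the lowest adjusted p at BAM1 (-1.07 ± 0.28, 0.148).

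The change differed between the tissues for 16 of 9191 genes tested in a limma fit of all 36 libraries, 5 with a root change above that of shoots (0.0544%) and 11 below it (0.12%). Aquaporins of both membranes were among those below. PIP2A, a plasma membrane aquaporin, had 1789.6, 2100.9 and 1474.2 in roots at 2 h, against 1950.0, 1381.9 and 1850.4 in roots at 1 h, and 2476.9, 2693.9 and 2063.9 in shoots at 2 h, against 379.1, 470.0 and 478.1 in shoots at 1 h. Root libraries of the 2 times overlapped while those of shoots were far apart, and the difference was -2.39 ± 0.28 (limma adjusted p = 5.42e-06). PIP2B (-2.40 ± 0.28, 5.42e-06) and RD28 (-3.02 ± 0.40, 4.42e-05) differed likewise, though these neighbouring genes share a long identical stretch and counting may have mixed them. TIP2;2, of the tonoplast, had root means of 1456.0 ± 618.7 at 2 h and 1822.3 ± 461.1 at 1 h (SD, n = 3 each), and a difference of -2.58 ± 0.39 (0.000475). PIP1A, PIP1;4 and GAMMA-TIP were called too, with differences of -1.88 ± 0.37, -1.53 ± 0.32 and -1.76 ± 0.32. The remaining genes below 0 were AT3G24420 (-2.29 ± 0.46), EXL4 (-1.64 ± 0.30), ABF3 and RAB18.

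ABF3, whose root libraries overlapped, differed by -2.12 ± 0.36 (limma adjusted p = 0.00303), its shoot signal being 172.9, 197.6 and 170.2 at 2 h, against 30.2, 42.7 and 38.3 at 1 h. RAB18 differed by -3.72 ± 0.79 (0.0303), with 115.8, 152.7 and 135.9 in shoots at 2 h, against 8.9, 11.7 and 20.8 in shoots at 1 h. Its root values overlapped as given above.

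Of the genes with a difference above 0, FLA9, a fasciclin-like arabinogalactan protein of the cell wall, had 966.0, 705.5 and 766.9 in roots at 2 h, against 997.2, 1015.1 and 1449.7 in roots at 1 h, and 36.3, 26.9 and 27.4 in shoots at 2 h, against 141.2, 130.8 and 155.3 in shoots at 1 h. Its change was lower in shoots than in roots by 1.71 ± 0.31 (limma adjusted p = 0.00697). IPT3, an enzyme of cytokinin synthesis, differed by 2.3 ± 0.49 (0.0327), CYP83B1, of indole glucosinolate synthesis, by 1.53 ± 0.31 (0.0219), and PME3, a pectin methylesterase, by 1.09 ± 0.23 (0.0303). In the shallow replicate 2 of shoot 2 h, where 1 read stood for a signal of 4.49, IPT3 had 4.5. AT5G03380, which has no gene name in the RefSeq table, differed by 2.43 ± 0.45 (0.00847), with 297.9, 300.7 and 169.1 in roots at 2 h, against 207.9, 98.1 and 146.3 in roots at 1 h. None of these 5 genes was called in roots alone. Over the 12 fits that leave out 1 compared library of either tissue, PIP2A, PIP2B, RD28, TIP2;2, ABF3, EXL4 and FLA9 were called in all 12, GAMMA-TIP in 11, AT5G03380 in 9 and CYP83B1 in 7. AT3G24420 and PIP1A were called in 6, PIP1;4 and PME3 in 4, RAB18 in 3 and IPT3 in 2. When only the 12 compared libraries entered the limma fit, 0 genes were called, with 332 at an unadjusted p under 0.05, while edgeR over all 36 libraries called 20 and the replicate block 11.

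**Figure D5:**
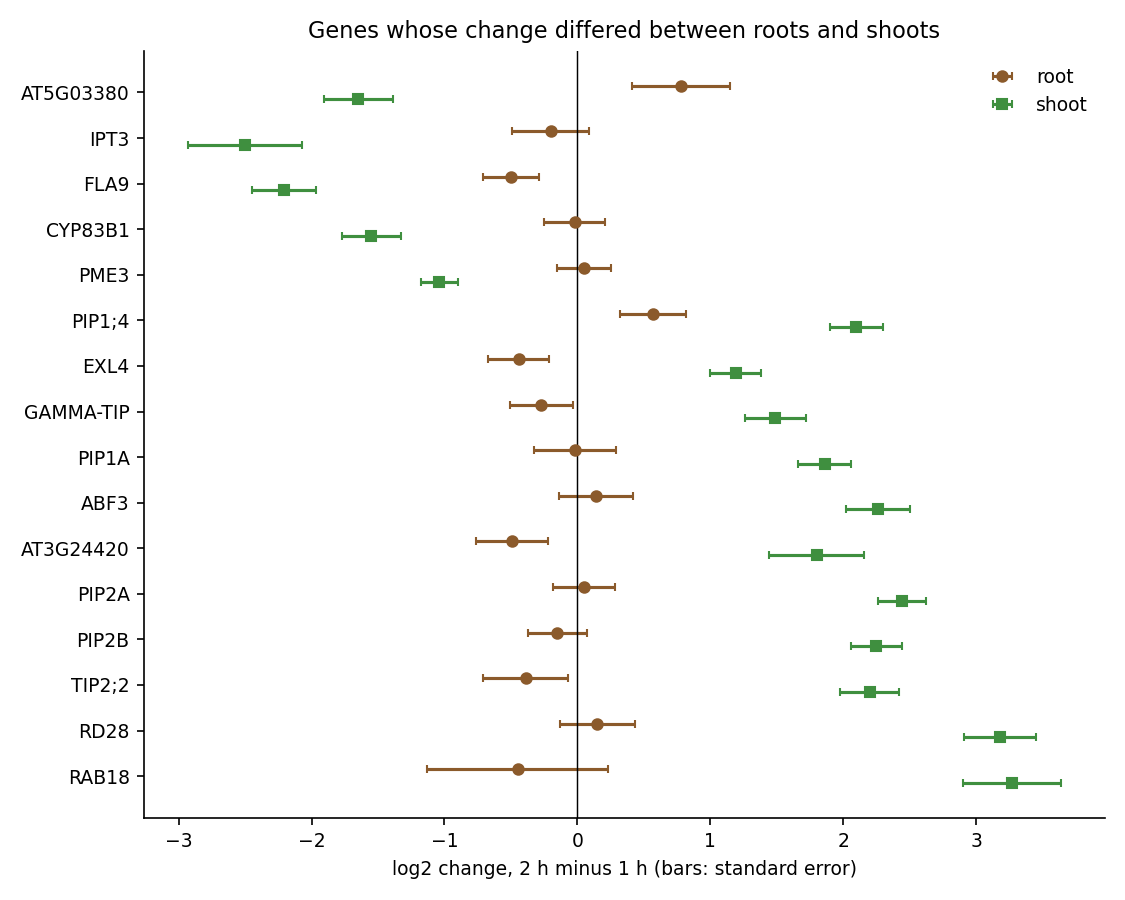
Log2 change from 1 h to 2 h, with its standard error, in roots (brown circles) and shoots (green squares) for the 16 genes whose change differed between the tissues. Root changes lie between -0.50 and 0.78, while shoot changes reach from -2.50 to 3.27.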

How the data were processed

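RNA was measured by MARS-seq in 36 libraries, 3 replicates in each of 12 groups, and the replicates were pools of seedlings. The deposited table holds 16283 genes as normalized signal, which the authors made by dividing read counts by a size factor and rounding. Per the submitters' processing notes the tools were bcl2fastq, cutadapt, STAR 2.4.2a, HTSeq and DESeq2. The sources used here do not give the genome build, the strand setting or the use of molecular identifiers, so recovered reads may include copies of a molecule.

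Whole reads were recovered from the steps of the low signal values. At least 99.945% of the values of each library came out whole within a tolerance of 0.05. RefSeq TAIR10.1 supplied names by locus tag for 16183 genes (99.39%).

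The test was limma 3.58.1 with trend in R 4.3.3, on log2(signal + 1) of the 18 root libraries with 6 group means. Genes needed a signal of 5 or more in at least 3 root libraries. The tissues were compared by the difference of their changes in a fit of all 36 libraries. edgeR 4.0.16, with its quasi-likelihood test, and DESeq2 1.42.0 on the recovered reads were alternatives. Others changed the scaling, pseudocount, filter, libraries fitted and covariates, and left out each compared library. The edgeR and DESeq2 fits without replicate 2 of 1 h, and 2 of the block fits, were added after seeing the data. The recovery of reads and the limma and edgeR fits were tested on simulated data, and the DESeq2 fit was not.

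A called gene was named where its libraries did not overlap and the mean of its higher group reached 20. Genes with the smallest p filled this up to 10 per direction, and list members could be named too. AT4G33930 and AT1G30870 fall outside that rule and were named after their values were seen, and of the genes below 0 only some are given. The 26 gene lists and the comparison were chosen with earlier results of these data known, so they are no independent support. Deviations of 2 h and 1 h libraries from their group means correlated with r of 0.161, 0.382 and 0.51 for the replicate numbers 1, 2 and 3. Pairs of unlike number had r of -0.59 to 0.184. Deviations balance out within each group of 3, so a positive r for like numbers partly forces lower r for unlike ones. Replicate 2 of 2 h with replicate 1 of 1 h had the 0.184, above the pair of number 1, so the pairing is unclear for that number. It comes from the data and not from a stated shared batch.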

Additional observations from a re-analysis of the deposited data

Results flagged for a closer look

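For 16 genes the change from 1 h to 2 h differed between roots and shoots by limma's test of the difference itself, with an adjusted p under 0.05 over 9191 genes. Given as root minus shoot on the log2 scale, the 5 largest differences above 0 were AT5G03380 at 2.43, IPT3 at 2.3, FLA9 at 1.71, CYP83B1 at 1.53 and PME3 at 1.09. Those furthest below 0 were RAB18 at -3.72, RD28 at -3.02, TIP2;2 at -2.58, PIP2B at -2.40 and PIP2A at -2.39. Among them RAB18, IPT3 and PME3 were called in 3, 2 and 4 of the 12 fits that leave out 1 compared library, and RD28, TIP2;2, PIP2B, PIP2A and FLA9 in all 12.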

How the results depend on the processing

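The number of genes called in roots depended on the fit. Against 6 higher and 0 lower, limma called 0 higher in the fit of the 9 PEG+SHAM libraries, 0 in that of the 6 compared libraries and 2 with a pseudocount of 0.5, while a depth covariate gave 24 higher and 1 lower. edgeR called 11 higher, and 0 on the 6 compared libraries (110 genes at an unadjusted p under 0.05), and DESeq2 33 higher and 4 lower. Leaving out 1 library gave 0 to 13 higher and 0 to 1 lower, with 0 higher without replicate 2 of 2 h or replicate 1 of 1 h. Without replicate 2 of 1 h, edgeR called 10 higher and DESeq2 56 higher and 3 lower. The replicate block gave 4 higher over all root libraries, 19 higher and 1 lower over the 2 h and 1 h libraries, and 0 in a fit of the 6 libraries (383 at an unadjusted p under 0.05). Root minus shoot gave 16, but 0 in the fit of the 12 compared libraries, 8 to 22 without 1 library (8 without root 2 h replicate 1, root 1 h replicate 2 or shoot 2 h replicate 2, and 9 without shoot 1 h replicate 1) and 11 with the replicate block. The causes were not tested. Of 1647 values of 73 root genes across the root alternatives 1617 kept their direction, and the other 30 belong to 8 genes that were not called in any fit. Leaving out 1 library gave -0.29 to 1.85 for HAB2, -0.09 to 0.53 for ABF3, -0.19 to 0.13 for ABF4, -0.27 to 0.12 for MAPKKK15, -0.25 to 0.27 for STZ, -0.91 to 0.66 for KIN2 and -0.06 to 0.64 for COR47. Without replicate 2 of 1 h, edgeR and DESeq2 gave -0.19 and -0.12 for HAB2, -0.22 and -0.17 for ABF4, 0.07 and 0.12 for MAPKKK15, and 0.76 and 0.79 for KIN2, and edgeR gave -0.02 for AOX1A. With all compared libraries, edgeR and DESeq2 gave -0.04 and -0.07 for ABF4 and 0.01 and 0.03 for MAPKKK15, and edgeR on the 6 gave -0.01 and 0.01. A depth covariate gave -0.00 for ABF4, and quantile normalization 0.11 for KIN2. Low reads, 429814 in replicate 2 of root 1 h and 340153 in replicate 2 of shoot 2 h, limit what can be seen of weak genes.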
